A study of Mus musculus with 6 samples.

Results

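Expression of 7 genes that move the nucleus and cell body of migrating neurons was compared between double-mutant (dmut) and control medial ganglionic eminences (MGE), the ventral forebrain domain from which many cortical interneurons leave. The genes were chosen by name as genes of nucleokinesis and lissencephaly: Dcx, Dclk1, Pafah1b1, Ndel1, Nde1, Cdk5 and Cdk5r1. All 7 were found among the 17794 genes of the deposited table, and all 7 passed the filter on low counts that left 15960 genes for the test. Both groups were mouse embryos at E13.5 and carried the Nkx2.1Tg(Cre) transgene and 1 copy of the R26R-YFP reporter. The 3 dmut libraries came from Rac1 fl/fl; Rac3-/- embryos, so that Rac3 was missing from every cell and Rac1 was recombined only where Cre had acted in cells with a history of Nkx2.1 expression. The 3 control libraries came from embryos that were wild type at Rac1 and Rac3. Each library was made from MGEs pooled from 3 embryos, without sorting, so cells outside the Cre lineage contributed RNA.

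A migrating neuron extends a leading process, and microtubules with the motor dynein then pull the centrosome and nucleus forward. Doublecortin (Dcx) binds and stabilises microtubules in such neurons, and the related kinase Dclk1 carries the same kind of microtubule-binding domains. Lis1, encoded by Pafah1b1, regulates dynein together with the adaptors Ndel1 and Nde1, of which Nde1 is best known for its role in dividing progenitors. Cdk5 is a kinase of postmitotic neurons that works only with an activator such as p35, encoded by Cdk5r1, and it phosphorylates Dcx and Ndel1. Loss of Dcx or Lis1 causes lissencephaly in humans, a smooth brain in which neurons fail to reach their layers. Rac1 and Rac3 are small GTPases that control actin and protrusion, and p35 was described as a binding partner of Rac.

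None of the 7 genes passed the test between dmut and control (edgeR quasi-likelihood test on total gene reads, Benjamini-Hochberg adjusted p of 0.05), and none had an unadjusted p under 0.05. Of all genes tested, 0.482% passed and 21.3% had an unadjusted p under 0.05. In 7 of 18 alternative settings 1 member had an unadjusted p under 0.05, namely Cdk5 in 6 of them (0.0477 from unique reads and 0.03 with the label date as a block, edgeR) and Cdk5r1 without dmut replicate 1, and none passed after adjustment. The largest log2 fold change of dmut over control among the 7 was that of Cdk5, 0.28 (edgeR adjusted p = 0.245), and the most negative was that of Dcx, -0.07 (edgeR adjusted p = 0.879). The median over the 7 genes was 0.11, beside -0.02 over all genes tested. These are bulk samples, in which fewer cells of a type and less RNA per cell cannot be told apart, and nothing states that the pools came from separate litters, so p-values measure the spread between these samples.

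Dcx and Dclk1 are shown with the bases that lie before their first annotated transcript starts, because these were the 2 members whose levels moved most nearly together from library to library. The sequences are from RefSeq on GRCm38.p6, written 5′ to 3′ along the gene, with capitals for matches to CANNTG (the E-box, the letters bound by many basic helix-loop-helix factors) and to TATAAA (the TATA box), each searched on both strands.
Dcx, chrX:143933312-143933469, minus strand: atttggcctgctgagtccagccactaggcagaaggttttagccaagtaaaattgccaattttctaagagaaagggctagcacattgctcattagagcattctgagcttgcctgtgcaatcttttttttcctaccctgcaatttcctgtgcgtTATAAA
Dclk1, chr3:55242114-55242363, plus strand: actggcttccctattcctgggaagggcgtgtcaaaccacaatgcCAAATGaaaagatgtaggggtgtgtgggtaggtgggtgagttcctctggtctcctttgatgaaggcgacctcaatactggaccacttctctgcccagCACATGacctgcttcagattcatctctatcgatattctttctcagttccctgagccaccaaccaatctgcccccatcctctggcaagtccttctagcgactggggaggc
The Dcx stretch of 158 bases held 1 TATAAA and no CANNTG, and the Dclk1 stretch of 250 bases held 2 CANNTG and no TATAAA. Over 32851 promoter windows of 250 bases in the same table, 66.2% held CANNTG and 12.4% held TATAAA on either strand. The windows of Pafah1b1, Ndel1 and Nde1 had 73.2%, 63.6% and 67.2% G and C, against 41.6% for Dcx and 52.4% for Dclk1, with a median of 52.4% over all windows. The value for Dcx is over its whole window of 250 bases, of which 158 are printed. That whole window held the same counts of both motifs as the printed bases. The windows of Pafah1b1 (chr11:74723859-74724108) and Ndel1 (chr11:68853136-68853385) lay inside the gene spans given below, downstream of those gene starts. The matches describe letters only.

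Dcx lies on the X chromosome (GRCm38, X, 143855842 to 143933311, minus strand) and its annotated exons cover 12647 bases. It had 14369, 24969 and 20687 total gene reads in replicates 1, 2 and 3 of dmut, against 25810, 30210 and 27812 in replicates 1, 2 and 3 of control (this replicate order is kept throughout). As CPM, that is, counts scaled to a common library size with TMM factors, this was 521, 916 and 789 CPM in dmut, against 708, 808 and 828 CPM in control. Replicate 1 of dmut was the lowest of the 6 libraries and replicate 2 of dmut the highest, so the dmut values enclosed all control values. The means were 742 ± 202 CPM in dmut and 781 ± 64.5 CPM in control (SD, n = 3 each). The log2 fold change was -0.07 with a standard error of 0.20 and a 95% interval of -0.55 to 0.40, that is, dmut levels between 0.683 and 1.32 times control remained within the interval (edgeR adjusted p = 0.879). Without dmut replicate 1 the log2 fold change of Dcx was 0.13 (edgeR adjusted p = 0.631), and without dmut replicate 2 it was -0.25 (0.466).

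Dclk1 (chromosome 3, 55242526 to 55539064, plus strand, 15296 exon bases) was likewise lowest in dmut replicate 1 and highest in dmut replicate 2. It stood at 244, 388 and 330 CPM in dmut replicates 1, 2 and 3, against 300, 335 and 323 CPM in control replicates 1, 2 and 3. The dmut values again enclosed the control values, with means of 321 ± 72.1 CPM in dmut and 319 ± 17.9 CPM in control. The log2 fold change was 0.01 ± 0.17 (SE), with a 95% interval of -0.39 to 0.40 (edgeR adjusted p = 0.990). Across the 6 libraries the log2 CPM of Dcx and Dclk1 correlated at r = 0.97, a description only, since the values share library scaling. The log2 range over the 3 dmut libraries was 0.81 for Dcx and 0.67 for Dclk1, wider than in 92.6% and 86.9% of 9820 genes with a mean of at least 10 CPM, whereas their control ranges of 0.23 and 0.16 lay at the 52.5 and 33.4 percentiles.

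**Figure D1:**
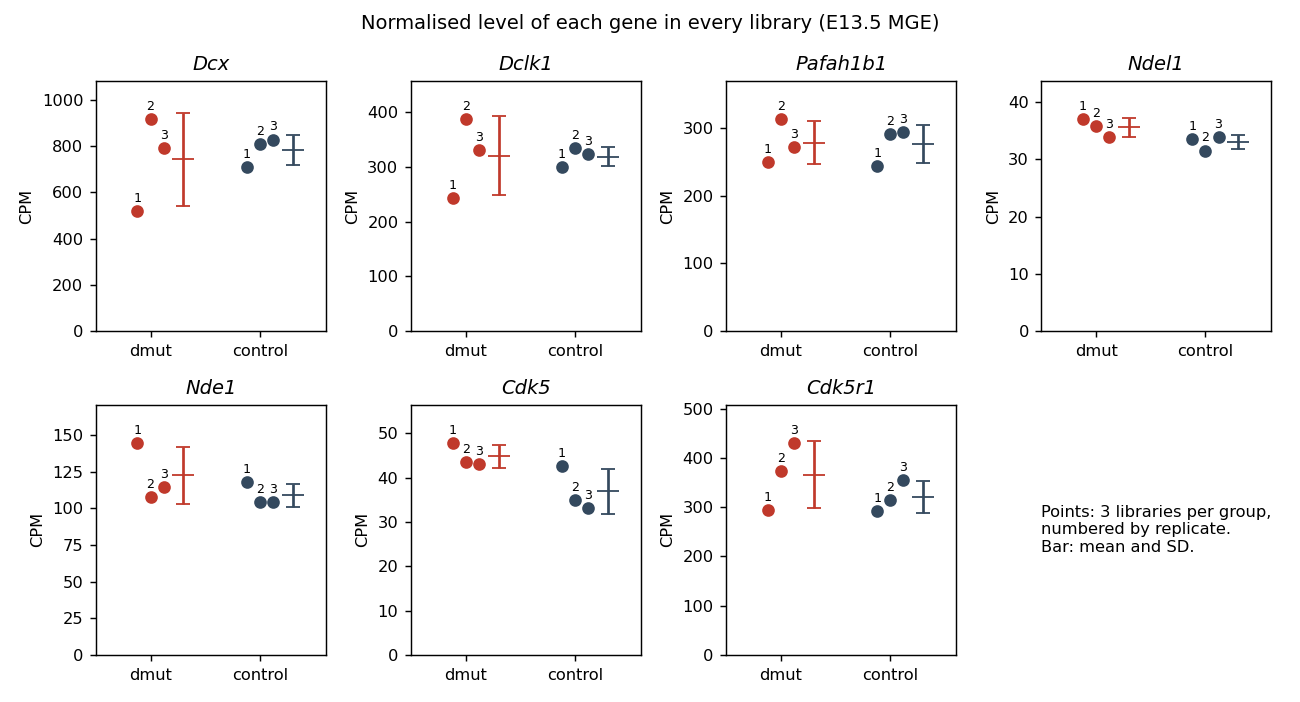
Level of each of the 7 genes in CPM in every dmut and control library (points, numbered by replicate) with the mean and SD of 3 libraries beside them. Dcx and Dclk1 spread widely in dmut, with replicate 1 lowest (521 and 244 CPM), and only Cdk5 has all dmut points above all control points.

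The dmut libraries that differed in Dcx also differed in markers of neighbouring and of blood cells. Summed RPKM (reads scaled to exon length and library size) of 15 cortical excitatory markers was 4.62, 30.4 and 8.12 for the 3 dmut libraries, against 10.7, 17.7 and 19.8 for the controls. Of these 15, Neurod1, Neurog1, Neurog2, Slc17a7, Fezf2 and Bhlhe22 were listed at 0 in at least 1 library. Dcx and the cortical sum were thus both highest in dmut replicate 2 and lowest in dmut replicate 1, and the part of such cells in the Dcx level was not tested. Erythroid markers (9 genes) summed to 41750, 11520 and 14070 RPKM in dmut, against 26860, 16660 and 28150 RPKM in control, highest in dmut replicate 1, and their part was not tested either. Postmitotic neuron markers (16 genes) summed to 1781, 1642 and 2159 RPKM in dmut, and to 1493, 1587 and 1774 RPKM in control, and the median log2 deviation of these markers from their control means was -0.02, 0.10 and 0.28 in dmut, and -0.09, -0.03 and 0.10 in control. Among the dmut libraries replicate 2 thus had the lowest sum and replicate 1 the lowest median, and their part in the Dcx level was not tested.

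The Lis1 gene Pafah1b1 (chromosome 11, 74673949 to 74724670, minus strand, 9620 exon bases) had 250, 313 and 271 CPM in the 3 dmut libraries, against 243, 290 and 294 CPM in the controls. The groups overlapped throughout, at 278 ± 31.9 CPM in dmut and 276 ± 28.5 CPM in control. The log2 fold change was 0.01 ± 0.13 (SE), with a 95% interval of -0.28 to 0.30 (edgeR adjusted p = 0.9747). Its relatives Pafah1b2 and Pafah1b3 encode the catalytic subunits of the enzyme in which Lis1 is the third subunit. Pafah1b2 had 267, 353 and 306 CPM in dmut, against 273, 278 and 294 CPM in control (log2 fold 0.13, edgeR adjusted p = 0.597). Pafah1b3 had 195, 144 and 191 CPM in dmut, against 116, 104 and 126 CPM in control, with all dmut values above control but no call (log2 fold 0.62 ± 0.14 SE, edgeR adjusted p = 0.0848).

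The adaptors of Lis1 and dynein differed from each other in level more than between the groups. Ndel1 (chromosome 11, 68821434 to 68871858, minus strand) had 37.0, 35.9 and 33.8 CPM in the 3 dmut libraries, against 33.6, 31.6 and 33.9 CPM in the controls. It was the steadiest of the 7 genes, with a log2 range of 0.13 within dmut and 0.10 within control, and its log2 fold change was 0.11 ± 0.09 (SE), 95% interval -0.11 to 0.33 (edgeR adjusted p = 0.567). Nde1 (chromosome 16, 14163275 to 14192928, plus strand) had 145, 108 and 115 CPM in dmut, against 118, 104 and 104 CPM in control. Replicate 1 was highest in each group and the groups overlapped. The log2 fold change of Nde1 was 0.17 ± 0.13 (SE), 95% interval -0.13 to 0.47 (edgeR adjusted p = 0.516). Nde1 was thus highest in the library in which Dcx was lowest, and over the 6 libraries their log2 CPM correlated at r = -0.94, again a description. In that library, dmut replicate 1, radial glia and progenitor markers (18 genes) summed to 1670 RPKM. Their sum was 1420 and 1529 RPKM in dmut replicates 2 and 3 and 1474 to 1493 RPKM in control, with Sox2 listed at 0 in at least 1 library. The median log2 deviation of these markers from their control means was 0.27, 0.15 and 0.08 in dmut, and -0.01, -0.01 and 0.03 in control. By the median dmut replicate 2 thus stood above replicate 3, and by the sum below it. The part of these markers in the Nde1 level was not tested.

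Cdk5 was the one member whose groups did not overlap in CPM, as held for 28.5% of all genes tested (13.6% with dmut higher), so 1 of 7 is near the background. Cdk5 (chromosome 5, 24418250 to 24423530, minus strand, 2168 exon bases) had 47.9, 43.6 and 43.2 CPM in the 3 dmut libraries, against 42.7, 34.97 and 33.1 CPM in the controls. The lowest dmut library exceeded the highest control library by less than 1 CPM. The log2 fold change was 0.28 ± 0.12 (SE), 95% interval -0.01 to 0.57 (edgeR adjusted p = 0.245, unadjusted p = 0.0544). Within the label dates, which the titles give without saying what they mark, the difference was 0.39 for 29 March (2 dmut and 1 control library) and 0.38 for 4 May (1 of each). Both differences leave out control replicate 1, the control library with the highest Cdk5. Without that library the edgeR log2 fold change was 0.40. It was 0.39 with the date as a block, where that library stands alone on its date. The groups overlapped in RPKM, at 21.1, 18.9 and 19.98 in dmut and 21.5, 17.9 and 16.3 in control, where the log2(RPKM + 1) difference was 0.11 (limma adjusted p = 0.581).

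Cdk5r1, which encodes p35, had the next largest log2 fold change after Cdk5, with overlapping groups. Cdk5r1 (chromosome 11, 80477046 to 80481179, plus strand) had 295, 373 and 431 CPM in the 3 dmut libraries, against 292, 315 and 356 CPM in the controls. The lowest dmut library was level with the lowest control library, and the other dmut libraries exceeded every control. The log2 fold change was 0.19 ± 0.16 (SE), 95% interval -0.18 to 0.55 (edgeR adjusted p = 0.554). The second neuronal activator, Cdk5r2 (p39), was near the limit of detection, with 51, 22 and 0 reads in dmut and 0, 17 and 0 in control, where a listed 0 stands for fewer than 10 reads.

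**Figure D2:**
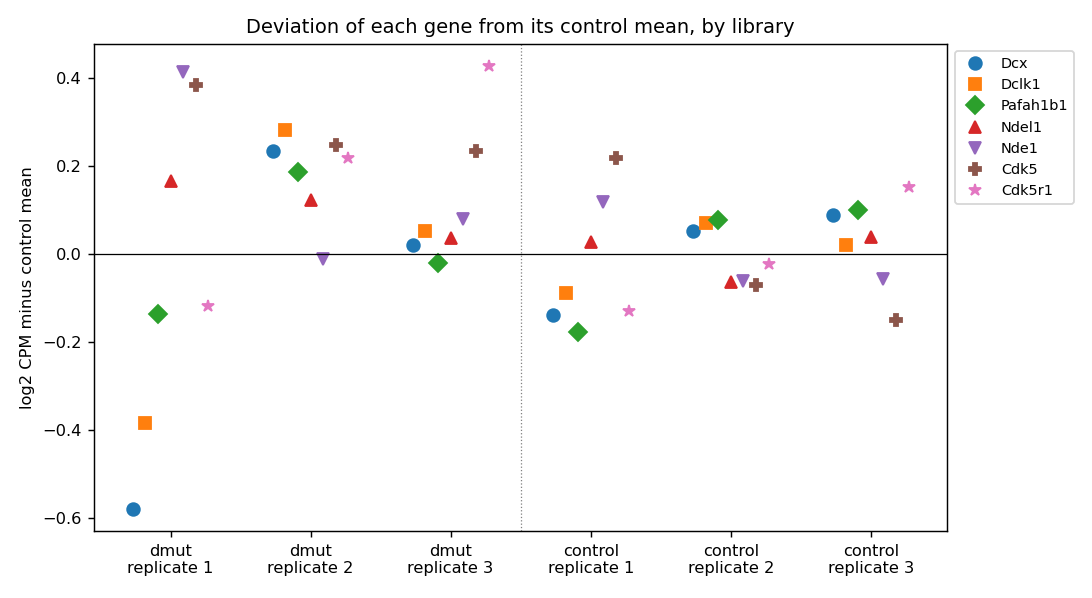
Log2 CPM of each gene minus its control mean, in each dmut and control library (1 point per gene and library). In dmut replicate 1 Dcx (-0.58) and Dclk1 (-0.39) lie lowest while Nde1 (0.41) and Cdk5 (0.38) lie highest, and no control library deviates by more than 0.22.

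Per length of exon, Cdk5r1 and Dcx were the most abundant of the 7 transcripts and Ndel1 the least. Mean RPKM was 82.5 ± 18.5 in dmut and 83.1 ± 7.05 in control for Cdk5r1, and 54.1 ± 15.1 in dmut and 65.4 ± 4.94 in control for Dcx. These levels placed Cdk5r1 at the 96.5 percentile in dmut and the 96.9 percentile in control, and Dcx at 94.5 and 95.9, among the genes tested. Nde1 followed at 34.4 ± 5.07 in dmut and 34.2 ± 2.42 in control, and Pafah1b1 at 26.1 ± 3.15 and 30.1 ± 3.12. Dclk1 stood at 21.5 ± 5.63 in dmut and 24.7 ± 1.76 in control, Cdk5 at 20 ± 1.12 and 18.6 ± 2.64, and Ndel1 at 9.48 ± 0.0075 and 9.52 ± 0.386. In dmut, each gene from Cdk5r1 down to Cdk5 overlapped its neighbour in this order except Nde1 and Pafah1b1 (lowest Nde1 29.66, highest Pafah1b1 28.87). In control, no 2 neighbours in this order overlapped, but Nde1 and Pafah1b1 (lowest Nde1 32.40, highest Pafah1b1 32.02) and Pafah1b1 and Dclk1 (lowest Pafah1b1 26.49, highest Dclk1 26.45) were parted by less than 1 RPKM. Ndel1 lay below all other members in every library.

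**Figure D3:**
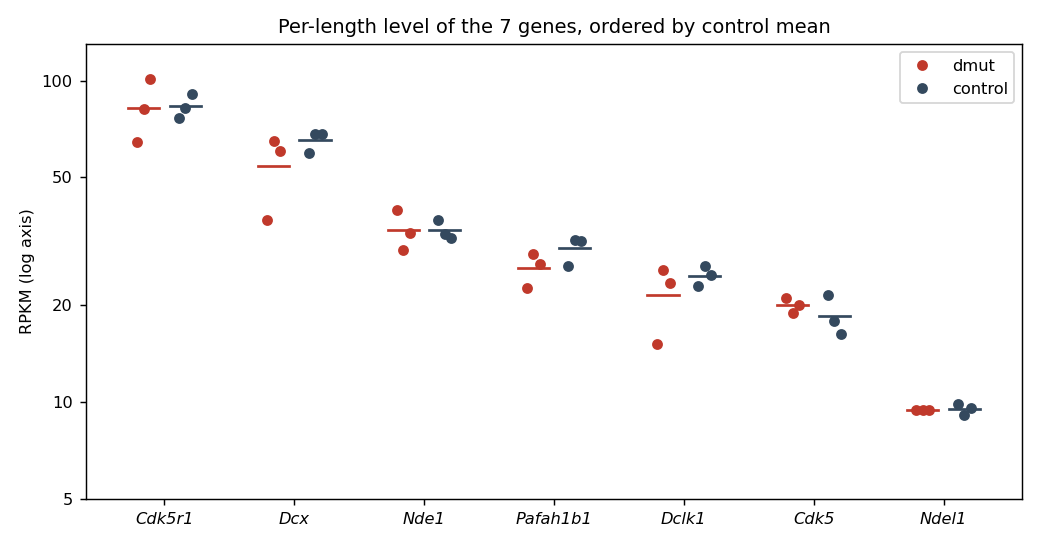
RPKM of the 7 genes on a log axis in dmut (left of each pair) and control libraries, with short lines at the group means and genes ordered by control mean. Levels run from about 9.5 for Ndel1 to 83.1 for Cdk5r1, and the 2 groups overlap for all 7 genes, with the dmut points of Ndel1 inside the control range.

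Ratios of RPKM between paired genes were tested over libraries with 2-sided exact permutation tests, in which 3 against 3 cannot go below p = 0.1. Dcx was 2.43, 2.51 and 2.57 times Dclk1 in dmut, against 2.60, 2.59 and 2.75 times in control. The log2 ratio was lower in all 3 dmut libraries, by 0.08 on average (exact p = 0.1, adjusted over 4 ratios 0.4), and in dmut replicate 1, where both genes were lowest, the ratio was the lowest of the 6 libraries. Ndel1 was 0.239, 0.320 and 0.281 times Nde1 in dmut, against 0.267, 0.273 and 0.295 times in control (exact p = 1). Cdk5r1 was 3.06, 4.30 and 5.08 times Cdk5 in dmut, against 3.56, 4.59 and 5.56 times in control (exact p = 0.6). Ndel1 was 0.418, 0.328 and 0.353 times Pafah1b1 in dmut, against 0.373, 0.285 and 0.301 times in control (exact p = 0.3, adjusted 0.6). The groups overlapped in the last 3 ratios.

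The kind of reads behind each level was checked next. Unique reads made up over 98% of the total gene reads of every member in every library except Dclk1, beside a median of 98.97% over all genes tested. For Dclk1 the unique share was 69.6%, 73.6% and 72.4% in the 3 dmut libraries, against 70.1%, 72.9% and 71.2% in the controls (2-sided exact permutation p = 0.8). Only 0.27% of the 50-base words of Dclk1 transcripts recur in annotated transcripts of another gene. From unique reads alone the log2 fold change of Dclk1 was 0.035 (edgeR adjusted p = 0.936). Why so many Dclk1 reads were not counted as unique was not tested. Exon reads implied by RPKM and annotated exon length, an approximation that can pass 100%, were 91.7%, 94.5% and 92.9% of the Ndel1 reads in dmut, against 88.2%, 87.0% and 87.1% in control. For Nde1 they were 96.9%, 97.1% and 96.0% in dmut, against 92.8%, 95% and 94.4% in control. The ratio of gene reads to exon reads was thus lower in dmut without overlap for 2 of 7 members (exact p = 0.1 each, adjusted over 7 genes 0.233), beside 30.2% of 14144 genes. It was higher in dmut without overlap for 1 of 7, Cdk5r1 (log2 difference 0.004), beside 7.44% of genes. In either direction this held for 3 of 7 members and 37.7% of genes, so the members' share was near the background.

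**Figure D4:**
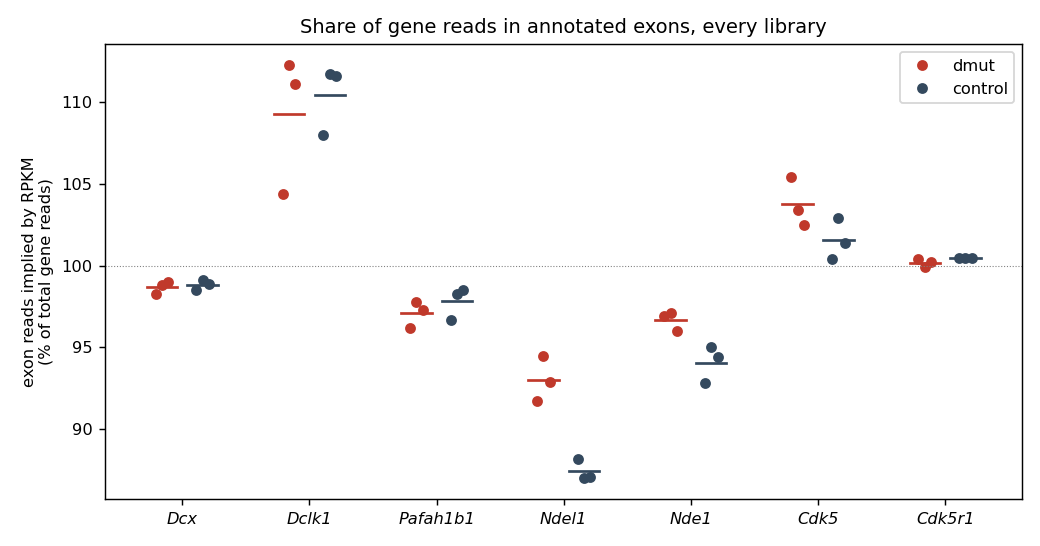
Exon reads implied by RPKM as a percentage of total gene reads, for each gene in dmut (left of each pair) and control libraries, with short lines at group means. Ndel1 lies at 91.7% to 94.5% in dmut and 87.0% to 88.2% in control, the widest gap of the 7 genes.

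Log2 fold changes differed between the longer and the shorter of the 7 genes, without following exon length gene by gene, and no test was made of this. The 3 genes with the longest exon sequence, Dclk1, Dcx and Pafah1b1, stood between -0.07 and 0.01, and the 4 with 4162 bases or fewer, Cdk5r1, Ndel1, Nde1 and Cdk5, between 0.11 and 0.28. Over all genes the median log2 fold change ran from 0.91 below 500 exon bases to -0.14 above 8000. Once a trend on length and GC had been taken out of every library, the 7 log2 fold changes lay between 0.05 (Ndel1) and 0.17 (Cdk5r1), with Cdk5 at 0.11 and Dcx at 0.07, and none passed. Scaling by library size only put the median gene at -0.23 and moved the members down with it, to between -0.27 for Dcx and 0.08 for Cdk5. Relative to the median gene, 6 of 7 members were higher and Dcx was lower, as with TMM. With log2(RPKM + 1), where the median gene lay at -0.10, Dcx stood at -0.31 (limma adjusted p = 0.392), and Dcx, Dclk1 and Pafah1b1 lay below the median gene while Ndel1, Nde1, Cdk5 and Cdk5r1 lay above it.

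**Figure D5:**
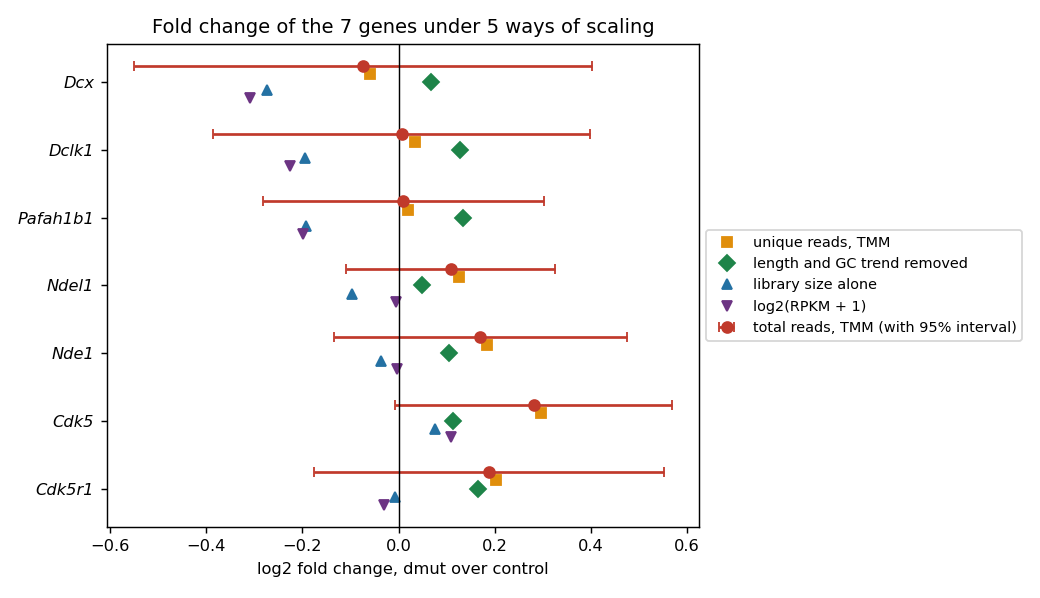
Log2 fold change of dmut over control for the 7 genes under 5 scalings, with the 95% interval for total reads with TMM. All intervals include 0, and Cdk5 lies between 0.08 and 0.30. Library size alone and log2(RPKM + 1) also move the median gene, to -0.23 and -0.10, so points there are read against those values.

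Within label dates, the log2 difference of Dcx was -0.23 for 29 March and -0.07 for 4 May, and that of Nde1 was 0.26 and 0.14. For Dclk1 it was -0.12 and 0.03, for Pafah1b1 -0.05 and -0.12, for Ndel1 0.21 and -0.002, and for Cdk5r1 0.07 and 0.28. Control replicate 1 alone carried 23 March. These values rest on 1 control library each, so they have no replicate error. With the date as a block no member passed (smallest edgeR adjusted p = 0.368). The authors' deposited table also called none of the 7: its signed folds of dmut over control were -1.08 for Dcx, -1.03 for Dclk1, -1.03 for Pafah1b1, 1.11 for Ndel1, 1.12 for Nde1, 1.20 for Cdk5 and 1.11 for Cdk5r1, each with an adjusted p of 1.

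The wider machinery around these genes was described from 4 lists that share some genes and leave out the 7 members. These lists were chosen with earlier results of these data known, so their counts are a description. In the list of Lis1, dynein and dynactin genes 2 of 35 tested rose and none fell, with a median log2 fold change of 0.06, beside 0.163% of all genes called higher and 0.32% called lower. Both were dynein light chains. Dynlt1b had 146, 93.9 and 116 CPM in dmut, against 33.5, 30.4 and 46.4 CPM in control, with no overlap (log2 fold 1.69 ± 0.21 SE, edgeR adjusted p = 0.0413). Dynll1 had 370, 317 and 334 CPM in dmut, against 213, 183 and 196 CPM in control, again with no overlap (0.79 ± 0.11 SE, edgeR adjusted p = 0.0413). Dynlt1b has near-identical copies (Dynlt1a stood at -0.08 and Dynlt1f at 0.44 on the log2 scale, neither called), and reads may be split between them. Each of the 2 was called in 10 of 18 alternative settings, with Dynlt1b at 1.27 and an edgeR adjusted p of 0.051 from unique reads, and neither was called without control replicate 1, 2 or 3 or without dmut replicate 1 or 3 (edgeR adjusted p from 0.0723 to 0.240).

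Among 19 doublecortin relatives and microtubule partners none passed (median 0.05). The smallest p-values belonged to Ppp1r9a, which encodes the actin-binding protein neurabin (79.3, 84.8 and 84.5 CPM in dmut, against 107, 118 and 118 CPM in control, log2 fold -0.46, edgeR adjusted p = 0.0689), and to the neuronal tubulin Tubb2b (3715, 3512 and 3475 CPM in dmut, against 2111, 2250 and 2656 CPM in control, 0.61, adjusted p = 0.0751). Dclk2, the closest relative of Dclk1, had 298, 286 and 313 CPM in dmut, against 314, 289 and 260 CPM in control (0.05, adjusted p = 0.822). Dclk3 was weak, at 1.27, 2.09 and 2.98 CPM in dmut, against 1.62, 3.02 and 2.65 CPM in control. Of 28 activators, regulators and substrates of Cdk5 none passed (median 0.12), with the smallest p-values for the tubulin Tubb3 (1408 ± 232 CPM in dmut and 750 ± 165 CPM in control, 0.91, edgeR adjusted p = 0.0790) and the microtubule-destabilising protein Stmn1 (1825 ± 309 and 1216 ± 54 CPM, 0.59, adjusted p = 0.0910). Of 21 other lissencephaly genes none passed (median -0.02), and Tubb2b and Tubb3 again had the smallest p-values. Of the 4 lists together 2 genes passed, against 17 with DESeq2, 8 without dmut replicate 2 and 0 without any 1 of the other 5 libraries, so the count depends on the tool and on each library.

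Genes whose log2 CPM followed a member most closely over the 6 libraries were Ppm1l (r = 0.998), Rims4 (0.994) and Mllt3 (0.992) for Dcx. For Pafah1b1 they were Spast (0.994), Derl1 (0.987) and St8sia4 (0.986), and for Cdk5 they were Dnal4, Pknox2 and Rxrb (0.991 each). Rims4, for example, had 7.72, 22.6 and 15.5 CPM in dmut, against 13.54, 18.2 and 17.7 CPM in control, so that it too was lowest in dmut replicate 1 and highest in dmut replicate 2. With 6 libraries and 9820 genes compared, such values are a description.

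Total gene reads ranged from 26766556 to 30363369 in dmut and from 31881697 to 34612095 in control. Rac3 had 16, 0 and 0 reads in dmut, against 728, 647 and 532 in control, while Rac1 had 221, 273 and 251 CPM in dmut, against 274, 273 and 269 CPM in control (log2 fold -0.13, edgeR adjusted p = 0.525). The MGE factors Nkx2-1 (253 to 285 CPM in dmut, 252 to 307 CPM in control) and Lhx6 (308 to 421 CPM and 285 to 344 CPM) were present in every library. Gad1, a GABA synthesis gene, was lower in every dmut library. It had 58.8, 51.4 and 73.7 CPM in dmut, against 122, 93.2 and 93.2 CPM in control (log2 fold -0.75, edgeR adjusted p = 0.0827). Dlx1 (0.64), Dlx5 (0.63) and Dlx2 (0.40) had positive log2 fold changes and Lhx8 stood at -0.02, with none called. Of 22 MGE-derived interneuron markers 4 rose and none fell, among them Maf (log2 fold 1.69), Sst (2.20) and Nxph2 (3.14), beside 0.163% of all genes called higher. This list was chosen with earlier results of these data known, so its count is a description. Nxph2 was near the limit of detection in control, at 15, 18 and 12 reads, against 155, 81 and 67 in dmut. Without control replicate 1, 2 or 3 or dmut replicate 3 the count of called markers was 0. It was 1 without dmut replicate 1 and 10 without dmut replicate 2. With the label date as a block and with log2(RPKM + 1) it was 0. None of the postmitotic neuron (16 tested), progenitor (17), cortical excitatory (14), microglial (10), endothelial and pericyte (11), erythroid (9) or oligodendrocyte lineage (6) markers passed. Summed RPKM was 49.0 to 59.8 in dmut and 34.2 to 46.7 in control for microglial markers, 49.9 to 79.4 and 61.0 to 65.8 for endothelial and pericyte markers, and 7.56 to 9.39 and 10.6 to 12.1 for oligodendrocyte lineage markers, of which Sox10 was listed at 0 in at least 1 library.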

How the data were processed

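RNA was measured in MGEs of E13.5 mouse embryos, 3 dmut and 3 control libraries, each from a pool of 3 embryos. Per the labels' protocols, messenger RNA was isolated with magnetic beads and sequencing libraries with an Ion total RNA kit followed. The submitters' processing notes name GRCm38 (mm10). No source used here names the aligner or the counting program. The authors, per the file headers, deposited total and unique gene reads as whole-number counts, RPKM, and RPKM quantile-normalised to a common signal scale, which was read but not tested. The authors' deposited table also gives a p-value and a signed fold change (a score, negative when lower in dmut). No total count lay between 1 and 9, so a listed 0 means fewer than 10 reads. Starts in the table lay 1 base below those of GENCODE M21 for 4 of 7 members, so 1 was added.

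Counts were tested with edgeR 4.0.16 (R 4.3.3), TMM factors, filterByExpr and the 2-sided quasi-likelihood test at a Benjamini-Hochberg adjusted p of 0.05 over all genes. RPKM was tested with limma 3.58.1 on log2(RPKM + 1), and DESeq2 1.42.0 was an alternative. Intervals are at 95%. In these libraries 10 reads equal 0.267 to 0.382 CPM. The fit was tested on simulated data with changes larger than those of the members and the same spread set for every gene. That test does not cover differences as small as those of the members. Exon length and GC content came from GENCODE M21, which held 93.49% of the gene names. The trend on both was fitted on genes with at least 10 reads in every library, a detail set after the values were seen. Libraries of 1 group differed beyond sampling noise (chi-square over its degrees of freedom, 26.6 to 150) and counted as separate replicates. The members, lists and tests were chosen with earlier results of these data known. Named genes were the 7 members, up to 4 called genes per list (otherwise the 2 of smallest p), the 3 genes most like Dcx, Pafah1b1 and Cdk5, and Rac1 and Rac3. Pafah1b2, Pafah1b3, Dclk2, Dclk3, Cdk5r2, Nkx2-1, Lhx6, Lhx8, Dlx1, Dlx2, Dlx5 and Gad1 lie outside that rule. 1 gene that the rule names is not reported here.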

Additional observations from a re-analysis of the deposited data

How the results depend on the processing

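No member passed in any of the 18 alternative settings (smallest adjusted p = 0.169, for Cdk5 with the replicate block). Against 77 genes over the whole table, edgeR called 780 with library size alone (6.67% of them higher in dmut, 33.8% as reported), 135 when the mean had to reach 50 reads, 227 with the replicate block (62.1% higher), 49 with the length and GC trend removed and 0 with the label date as a block (2033 at an unadjusted p under 0.05, no other tool run with it). DESeq2 called 1799 (56.2% higher), limma-voom 127 and limma on log2(RPKM + 1) 49. Leaving out 1 library gave 2 to 585 calls, 2, 2 and 4 without control replicates 1, 2 and 3, and 22, 585 and 12 without dmut replicates 1, 2 and 3. In the 4 pathway lists 2 genes were called as reported, 5 with library size alone, 17 with DESeq2, 0 with the date block, 0 with log2(RPKM + 1), 1 with log2(RPKM + 0.1) and 0 to 8 on leaving out 1 library.

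Signs turned as follows, with no call. Library size alone, log2(RPKM + 1) and log2(RPKM + 0.1) put the median gene at -0.225, -0.104 and -0.182, against -0.023 as reported. Ndel1, Nde1 and Cdk5r1 lay above the median gene in all 3, and Dclk1 and Pafah1b1 did so with library size alone only. Why signs turned was not tested in any setting. Dcx stood at 0.067 after trend removal and at -0.254 to 0.126 on leaving out 1 library. Dclk1 stood at -0.195 with library size alone, -0.018 with limma-voom, -0.018 with the replicate block, -0.035 with the date block, -0.226 with log2(RPKM + 1), -0.236 with log2(RPKM + 0.1) and -0.153 to 0.168 on leaving out 1 library. Pafah1b1 stood at -0.193 with library size alone, -0.077 with the date block, -0.198 and -0.205 with the RPKM settings and -0.084 to 0.080 on leaving out 1 library. With library size alone and with both RPKM settings Ndel1 stood at -0.096, -0.005 and -0.005, Nde1 at -0.036, -0.003 and -0.003, and Cdk5r1 at -0.007, -0.031 and -0.032. On leaving out 1 library the log2 ratio difference of Ndel1 to Nde1 lay between -0.103 and 0.107 and that of Cdk5r1 to Cdk5 between -0.315 and 0.057. The gene-to-exon ratio difference then lay between -0.001 and 0.004 for Dcx and between -0.016 and 0.036 for Dclk1. The unique share difference, in percentage points, lay between -0.010 and 0.054 for Dcx, -0.410 and 1.604 for Dclk1, -0.010 and 0.035 for Nde1, and -0.007 and 0.077 for Cdk5.

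Deviations of same-numbered libraries correlated at 0.110, 0.123 and 0.015. Dmut replicates 1 and 2 correlated best with the control of their own number, with the next highest values at -0.028 and 0.015. Dmut replicate 3 correlated no better with its own number than with control replicate 1 (0.016), so the replicate numbers were not taken to pair the samples. With the replicate block Dcx stood at -0.11 and Cdk5 at 0.29. With 3 libraries a group the 95% intervals of the members span 0.43 to 0.95 log2 units, which limits how small a difference could be told from 0.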
